A study of Mus musculus with 21 samples.

Results

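The genes described here are 10 genes of glycolysis, namely the glucose transporter gene Slc2a1, the hexokinase genes Hk1 and Hk2, the phosphofructokinase genes Pfkl and Pfkp, and Aldoa, Tpi1, Pgk1, Eno1 and Ldha. They were taken by name: every non-control probe whose gene name on the array was one of the 10 was a member probe, which gave 16 probes of 55681, for 10 of the 21370 genes tested. All 16 probes stood well above background in the sample channel on all 21 arrays, so no gene was lost to the filter on dim probes. RNA from mouse small-intestinal organoids, crypt-derived epithelium kept in a gel, was hybridised to dual-colour Agilent arrays against a universal mouse reference RNA.

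Every group came from the same genetic background: a doxycycline-responsive (Tet-O) transgene for a truncated, myc-tagged human beta-catenin, ΔN89, with the M2-rtTA activator driven by the endogenous ROSA26 promoter, crossed to C57BL/6-J. All cultures were kept in Matrigel with EGF, Noggin and R-spondin 1 and were first grown with doxycycline, so the mutant beta-catenin, an effector of Wnt signalling, was induced in the controls too. The withdrawal group (4 arrays, letters D to G) was kept for 24 h without doxycycline, with vehicle. Compound 6 (4 arrays, D to G), compound 2 (3 arrays, A to C) and compound 9 (3 arrays, A to C) were given at 2 µM for 24 h with doxycycline present. Vehicle with doxycycline was hybridised on 7 arrays (A to G). The labels describe the compounds as analogues of one pyridine series that inhibit CDK8 and CDK19, kinases tied to the Mediator complex, and the question was how they compare with loss of the Wnt signal. No group without the transgene or without any doxycycline was analysed here, and what doxycycline does by itself cannot be told apart from loss of the mutant protein. The labels do not say whether arrays of a group came from separate cultures or animals, so each p-value reflects only the spread among the arrays used.

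Glycolysis splits glucose into pyruvate in the cytosol and yields ATP; lactate dehydrogenase then turns pyruvate into lactate and restores the NAD+ that the pathway needs. Glucose enters through facilitative transporters, hexokinase traps it as glucose 6-phosphate, and phosphofructokinase makes the committed step, after which aldolase, triosephosphate isomerase, phosphoglycerate kinase and enolase carry the sugar on towards pyruvate. Many of these genes are known targets of Myc and of the hypoxia-inducible factor HIF-1, and Wnt signalling has been linked to high glycolysis in colon cancer cells.

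Values are log2 ratios of sample (Cy3) over reference RNA (Cy5), so a value below 0 means less signal than in the reference; they are set only against the same probe. Letter sets A to C and D to G were scanned on 2 days with 2 scanners, and every change below is therefore taken within a letter set, with that set's vehicle arrays as the control. A gene was called when limma's adjusted p (Benjamini-Hochberg over all 21370 genes) was under 0.05. Because arrays with the same letter deviated together, a second fit used the letter as a replicate block, and its value is given where it moved a call. The 10 genes of the intestinal epithelium list all passed the filter, and their median ratio per array ranged between 3.75 and 4.56. One array stood apart from its letter set: the vehicle array F had a median log2 ratio of -4.20 over the 12 genes of dividing cells, against -1.92 to -1.79 on the vehicle arrays D, E and G. The vehicle arrays A, B and C, of the other set, were at -4.35, -4.22 and -4.35. Values without vehicle F are given where leaving it out changed a call or clearly moved a value. RNA from whole cultures cannot tell fewer cells of a type from less RNA per cell.

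Ldha was measured by 3 probes on the forward strand of chromosome 7 (mm9). From 5′ to 3′ they lie at chr7:54103010-54103069, chr7:54107294-54107353 and chr7:54110937-54110996, each 60 bases long. The first 2 are shown because they report the Ldha change apart from the 3′ probe, the brightest, and a probe of Hk1 on the reverse strand at chr10:61732717-61732776 (mm9) is shown because the Hk1 probes gave changes of different sign.
Ldha 5′ probe: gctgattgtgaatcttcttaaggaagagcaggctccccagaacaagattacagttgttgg
Ldha middle probe: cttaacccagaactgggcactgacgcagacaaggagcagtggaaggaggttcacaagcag
Hk1 5′ probe: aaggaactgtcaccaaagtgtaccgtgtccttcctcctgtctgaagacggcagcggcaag

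The 250 bases upstream of 1 start site each of Ldha (chr7:46845554-46845803, forward strand) and Pfkl (chr10:78009808-78010057, reverse strand), both from RefSeq on GRCm38.p6, are shown because these were the called members. Capitals mark ACGTG, 1 form of the core letters bound by HIF-1, and CACGTG, the E-box that Myc binds. Both were searched on both strands, and other forms of the core were not searched. Each CACGTG holds 2 overlapping ACGTG matches, 1 on each strand.
Ldha upstream: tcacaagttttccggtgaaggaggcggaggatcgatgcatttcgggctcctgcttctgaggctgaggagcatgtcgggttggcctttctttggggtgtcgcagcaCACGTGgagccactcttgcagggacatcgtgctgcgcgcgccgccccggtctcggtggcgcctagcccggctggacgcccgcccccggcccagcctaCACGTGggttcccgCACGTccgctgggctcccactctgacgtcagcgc
Pfkl upstream: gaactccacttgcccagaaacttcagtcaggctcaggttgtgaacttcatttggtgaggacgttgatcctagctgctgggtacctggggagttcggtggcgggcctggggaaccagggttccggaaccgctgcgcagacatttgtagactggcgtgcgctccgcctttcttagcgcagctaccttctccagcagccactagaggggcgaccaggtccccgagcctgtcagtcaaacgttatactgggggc

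The Ldha window shown held 5 ACGTG matches in 3 separate blocks, of which 2 were CACGTG. The window of the other Ldha start site (chr7:46846832-46847081) held none. The Pfkl window held neither motif in these letters. RefSeq listed 16 start sites for the 10 genes. ACGTG occurred upstream of 5 of the 10 genes (Slc2a1, Hk2, Aldoa, Pgk1 and Ldha), against 18.5% of all 27025 genes in the table with windows of the same length. A gene counted when any of its windows matched. The 27025 genes had 32851 windows, so the members had more windows per gene and more chances to match. CACGTG occurred upstream of 1 of the 10 (Ldha), against 6.86% of all genes. A match describes letters only and says nothing of binding.

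With compound 6, 2 of the 10 glycolysis genes were called and both were lower: Pfkl, the liver-type phosphofructokinase, was 1.44-fold lower, and Ldha, the lactate dehydrogenase subunit that favours lactate production, was 1.38-fold lower. The background was of the same order, since 13.4% of all genes were called lower and 11.4% higher with compound 6. Of the 10 members, 8 had a change below 0, and the median change was -0.19, against -0.03 over all genes tested. With the replicate block 5 of the 10 were called, all lower, where 23.9% of all genes were called lower.

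Pfkl was measured by 1 probe at chr10:77450926-77450985 (mm9, reverse strand). Its ratio was 0.08, 0.25, -0.38 and -0.15 on the compound 6 arrays D, E, F and G, against 0.60, 0.52, 0.30 and 0.48 on the matching vehicle arrays. Every compound 6 array lay below every vehicle array, and letter F was the lowest in both groups. The log2 change was -0.53 ± 0.17 (SE, 95% interval -0.88 to -0.18, adjusted p = 0.0266 in limma, n = 4 arrays each), and 4 of 4 letters were lower. Without the arrays of letter F it was -0.48 with adjusted p = 0.0568 in limma, and without vehicle F alone -0.59 with adjusted p = 0.0169. The call was also lost with Agilent's log ratio (adjusted p = 0.0555 in limma), with the series matrix (0.0513), without the set term (-0.17, 0.607), and without compound 6 F (0.0999), compound 6 G (0.0612), vehicle D (0.0734), vehicle E (0.0653) or vehicle G (0.058). On the 3 slides that held both groups the differences were -0.48, -0.86 and -0.37.

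The 3′ probe of Ldha, the brightest of its 3, read -0.09, -0.16, -0.60 and -0.40 on the compound 6 arrays D to G, against 0.37, 0.24, -0.08 and 0.08 on the vehicle arrays. The groups did not overlap, although compound 6 D was only just below vehicle F. The change was -0.47 ± 0.15 (SE, 95% interval -0.77 to -0.16, adjusted p = 0.0251 in limma, n = 4 each). The call was lost with Agilent's log ratio (adjusted p = 0.435 in limma), with the series matrix (0.071), without background correction (0.116), with only the arrays compared (0.0524), and without compound 6 F (0.0953), compound 6 G (0.0579), vehicle D (0.0851) or vehicle E (0.0699). The drop within a letter ranged between -0.52 and -0.40, and the differences within slides were -0.52, -0.68 and -0.24.

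The other Ldha probes, whose sequences stand above, also had changes below 0 with compound 6. The 5′ probe read 1.08, 0.88, 0.96 and 1.21 with compound 6, against 1.35, 1.29, 1.42 and 1.45 with vehicle, and here vehicle F was not low. It changed by -0.35 ± 0.12 (SE, adjusted p = 0.0352 in limma over all probes kept). The middle probe read 0.91, 0.41, 0.52 and 0.68, against 0.85, 0.82, 0.91 and 0.95; its change of -0.25 ± 0.11 had an adjusted p of 0.122, and compound 6 D lay inside the vehicle range. The probes thus gave the same direction and differed in size.

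**Figure D1:**
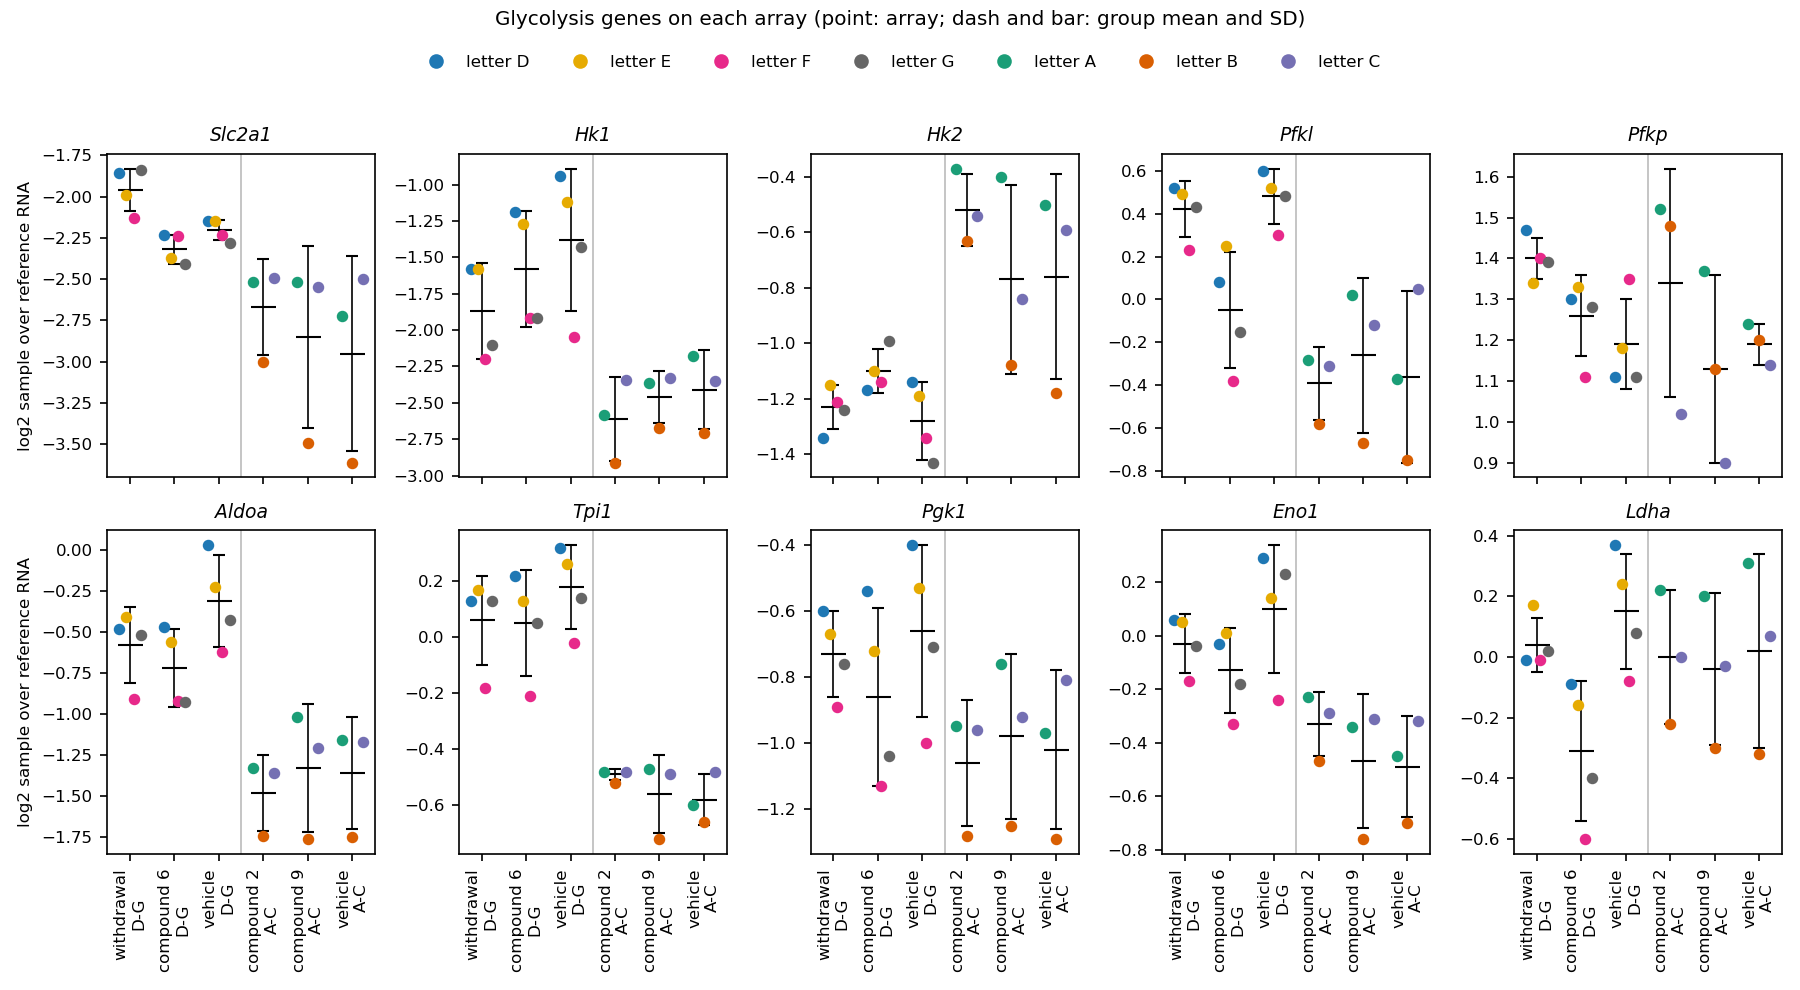
Log2 sample over reference of each of the 10 genes (brightest probe) on every array; the grey line parts letters D to G from A to C, each colour is a letter, and dashes with bars are group means with SD (n = 4 for D to G, n = 3 for A to C). The compound 6 points lie wholly below the vehicle points of D to G for Pfkl and Ldha, and letters B and F are the lowest of their groups in most panels.

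Of the lower steps, Aldoa, Pgk1 and Eno1 were not called with compound 6 by limma with the set term and were called with the replicate block. Aldoa, the widespread form of aldolase (probe at chr7:133938816-133938875, mm9), read -0.47, -0.56, -0.92 and -0.93 with compound 6, against 0.03, -0.23, -0.62 and -0.43 with vehicle. The ranges overlapped, while 4 of 4 letters were lower. The change was -0.40 ± 0.18 (SE), with adjusted p = 0.123 in limma and adjusted p = 0.000632 with the replicate block. Without vehicle F it was -0.51 with adjusted p = 0.0497 in limma.

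Eno1, the enolase found in most tissues, read -0.03, 0.01, -0.33 and -0.18 with compound 6, against 0.29, 0.14, -0.24 and 0.23 with vehicle. All letters were lower, but vehicle F fell among the compound 6 arrays. The change was -0.24 ± 0.12 (SE), with adjusted p = 0.18 in limma, 0.00946 with the replicate block, 0.0251 without vehicle F (change -0.35) and 0.0233 with Cy3 alone (change -0.30). Pgk1, phosphoglycerate kinase, makes the first ATP of the payoff phase. It read -0.54, -0.72, -1.13 and -1.04, against -0.40, -0.53, -1.0 and -0.71, a change of -0.20 ± 0.15 with adjusted p = 0.38 in limma and 0.0286 with the replicate block; without vehicle F it was -0.31 (adjusted p = 0.122 in limma). For these 2 genes the array file lists the probe away from the gene: the Eno1 probe on chromosome 2 (RefSeq has the gene on 4) and the Pgk1 probe on chromosome 3 (gene on X). Their signal may include near-identical copies and is uncertain as a measure of the named gene.

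The remaining 5 genes were not called with compound 6 by either fit. Tpi1, triosephosphate isomerase, had a change of -0.13 ± 0.10 on its brightest probe and 0.05 ± 0.09 on its other probe. Slc2a1, which encodes the transporter GLUT1, had -0.11 ± 0.21, and Hk1, the housekeeping hexokinase, -0.19 ± 0.23. Without vehicle F the change of Hk1 was -0.42 (adjusted p = 0.14 in limma), that of Tpi1 -0.19 and that of Pfkp 0.12, none of them called. Hk2, the inducible hexokinase, and Pfkp, the platelet-type phosphofructokinase, lay above 0, at 0.18 ± 0.14 and 0.07 ± 0.11. The 95% interval for Pfkp ran between -0.15 and 0.29, which does not reach the change of Pfkl. The difference between these genes was not tested.

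**Figure D2:**
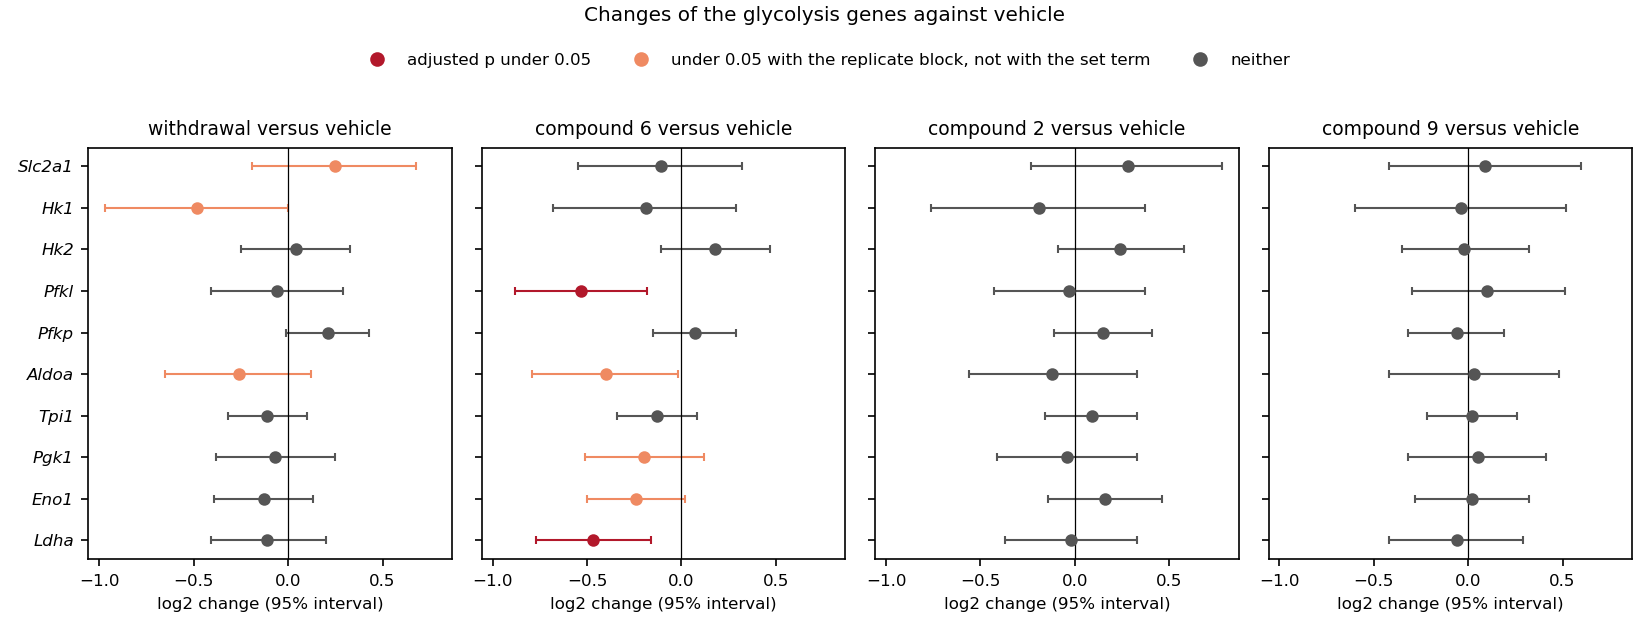
Log2 changes of the 10 genes against the vehicle arrays of their letter set, with 95% intervals (limma, n = 4 each for withdrawal and compound 6, n = 3 each for compounds 2 and 9). Pfkl and Ldha with compound 6 are the called points, and 3 further compound 6 points and 3 withdrawal points are called with the replicate block and not by limma with the set term.

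After doxycycline withdrawal none of the 10 genes was called by limma (adjusted p 0.146 to 0.864; none of the 10 had an unadjusted p under 0.05), while 7.27% of all genes were called higher and 13.4% lower. The median change of the 10 was -0.09, against -0.01 over all genes, and 7 of the 10 lay below 0. This depended on the scaling: with Agilent's log ratio 2 of the 10 lay below 0 and the median was 0.23, and with the series matrix 2 of the 10 and 0.17, so no direction is given for the 10 together. Without vehicle F the median was -0.18 and limma called 1 (Hk1, lower). With the replicate block 3 were called, Slc2a1 higher and Hk1 and Aldoa lower, where 39.1% of all genes were called in either direction.

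Slc2a1 (probe at chr4:118809864-118809923, mm9) read -1.86, -1.99, -2.13 and -1.84 on the withdrawal arrays D to G, against -2.15, -2.15, -2.23 and -2.28 on the vehicle arrays. Every withdrawal array was above every vehicle array. The change was 0.25 ± 0.21 (SE), with adjusted p = 0.441 in limma and 0.0415 with the replicate block. The A to C arrays, which share the estimate of spread, differed far more for this gene: vehicle A, B and C read -2.72, -3.61 and -2.50. With only the arrays compared, which leaves out A to C, the adjusted p was 0.0796 in limma and the gene was still not called.

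Aldoa read -0.48, -0.41, -0.91 and -0.52 after withdrawal, against 0.03, -0.23, -0.62 and -0.43 with vehicle, a change of -0.26 ± 0.18 (SE) with adjusted p = 0.332 in limma and 0.0113 with the replicate block. The groups overlapped, and the sign depended on the scaling: it was 0.14 with Agilent's own log ratio and 0.06 in the series matrix. The same held for Tpi1, Pgk1, Eno1 and Ldha, whose changes of -0.11, -0.07, -0.13 and -0.11 became 0.21, 0.32, 0.29 and 0.30 with Agilent's ratio. Without vehicle F they were -0.18, -0.18, -0.25 and -0.19, none of them called. The other probes lay above 0, at 0.12 ± 0.09 for Tpi1 and at 0.08 ± 0.12 (5′) and 0.08 ± 0.11 (middle) for Ldha. None of these probes was called. No direction is given for these 5 genes after withdrawal.

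The probes of Hk1 disagreed in sign after withdrawal, as did those of Tpi1, Ldha and Pfkp. The brightest Hk1 probe read -1.58, -1.58, -2.20 and -2.10 after withdrawal, against -0.94, -1.12, -2.05 and -1.43 with vehicle. It was lower in 4 of 4 letters. The change was -0.48 ± 0.23 (SE), with adjusted p = 0.146 in limma, 0.000543 with the replicate block, 0.015 without vehicle F (change -0.71) and 0.0405 without letter F (change -0.59). The array file lists this probe on chromosome 5, whereas RefSeq has Hk1 on chromosome 10. The 5′ probe shown above lies on chromosome 10 and read -0.84, -0.93, -0.82 and -0.89, against -1.10, -1.03, -0.84 and -1.10, a change of 0.15 ± 0.11 (SE, adjusted p = 0.377 in limma). The 3′ probe, also on chromosome 10 (chr10:61731856-61731915, mm9), changed by 0.16 ± 0.14 (adjusted p = 0.47). The 2 probes listed on the gene's own chromosome were therefore above 0 and the brightest below, and the mean of all probes changed by -0.06, so no direction is given for Hk1.

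The Hk1 probes also differed in the vehicle arrays alone. The brightest averaged -1.38 ± 0.49 in vehicles D to G and -2.41 ± 0.27 in vehicles A to C (SD, n = 4 and n = 3). The 5′ probe averaged -1.02 ± 0.12 in D to G and 0.02 ± 0.23 in A to C, the opposite order, and neither pair of ranges overlapped. Scan day and letter set cannot be told apart for any such difference.

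**Figure D3:**
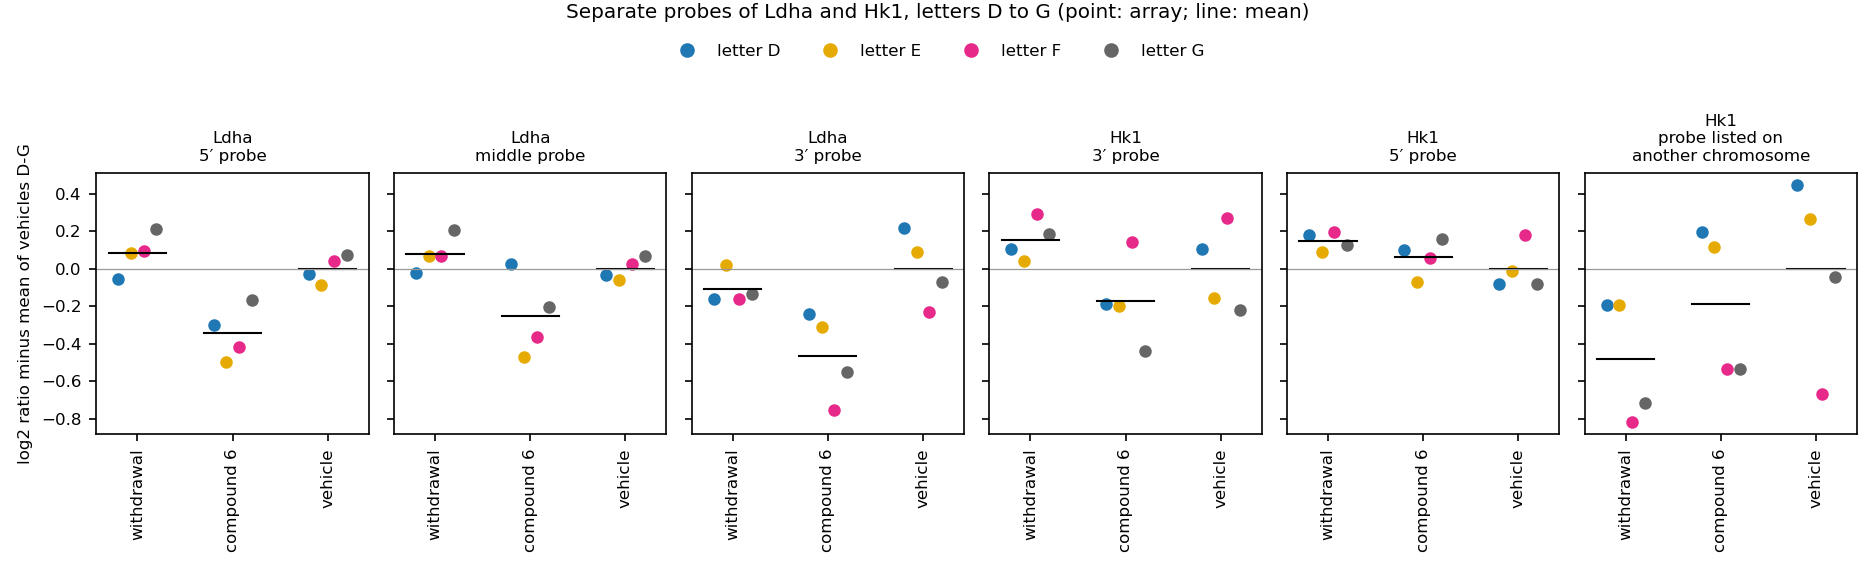
Each of the 3 Ldha and 3 Hk1 probes on the arrays D to G, as the log2 ratio minus the mean of the vehicles D to G; points are arrays coloured by letter and lines are group means (n = 4). All 3 Ldha probes have a lower compound 6 mean. After withdrawal, the Hk1 probe listed on another chromosome and the 3′ probe of Ldha have a lower mean, and the other probes shown do not.

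Hk2 read -1.34, -1.15, -1.21 and -1.24 after withdrawal, against -1.14, -1.19, -1.34 and -1.43 with vehicle, and changed by 0.04 ± 0.14. Pfkl, at 0.52, 0.49, 0.23 and 0.43 after withdrawal, changed by -0.06 ± 0.17, with a 95% interval between -0.41 and 0.29. Pfkp had a change of 0.21 ± 0.11 on its brightest probe (adjusted p = 0.168 in limma, 0.0532 with the replicate block) and -0.07 ± 0.12 on its other probe. None of these 3 genes passed either fit.

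Compound 2 gave no called member (adjusted p 0.484 to 0.975 in limma; none at an unadjusted p under 0.05), where 3.3% of all genes were called higher and 1.99% lower. The median of the 10 changes was 0.03, against 0 over all genes, with changes between -0.19 (Hk1) and 0.28 (Slc2a1). The Hk1 value is from the probe listed on chromosome 5. The Hk1 probes on chromosome 10 lay above 0, at 0.29 ± 0.16 (3′) and 0.19 ± 0.13 (5′). Neither was called in limma, and no direction is given for Hk1. Pfkl read -0.28, -0.58 and -0.31 on the compound 2 arrays A to C, against -0.37, -0.75 and 0.05 with vehicle, a change of -0.03 ± 0.19 (95% interval -0.43 to 0.37). Ldha read 0.22, -0.22 and 0.00, against 0.31, -0.32 and 0.07, a change of -0.02 ± 0.17 (95% interval -0.37 to 0.33). In both genes the groups overlapped and letter B was the lowest on either side.

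Compound 9 gave no called member either, and limma called 0% of all genes (248 of 21370 genes had an unadjusted p under 0.05, and the replicate block called 1). The changes ranged between -0.06 and 0.10, with a median of 0.02 against -0.01 over all genes, and none had an unadjusted p under 0.05. Pfkl read 0.02, -0.67 and -0.12 on the compound 9 arrays, against -0.37, -0.75 and 0.05 with vehicle. Ldha read 0.20, -0.30 and -0.03, against 0.31, -0.32 and 0.07. The 95% interval of Pfkl ran between -0.30 and 0.51 and that of Ldha between -0.42 and 0.29. Neither reached the compound 6 estimate for the same gene, but that estimate has its own error. In the direct comparison of compounds 6 and 9, given below, limma called neither gene. The widest of the 10 intervals were those of Hk1 (-0.60 to 0.52) and Slc2a1 (-0.42 to 0.60).

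The compounds were compared at the same dose and time in 3 pairs. Compounds 9 and 2 share a set of letters, and no member was called between them (adjusted p 0.417 to 0.955 in limma, 0 at an unadjusted p under 0.05), where 4.79% of all genes were; the changes ranged between -0.26 (Hk2) and 0.15. Compound 6 lay in the other set, so its change against its own vehicles was set against theirs. Between compounds 6 and 2 limma called no member (0 at an unadjusted p under 0.05) and 0.566% of all genes, with Pfkl at -0.50 ± 0.25 (95% interval -1.03 to 0.04) and Ldha at -0.45 ± 0.22 (95% interval -0.91 to 0.02). With the replicate block Pfkl, Eno1 and Ldha were lower (adjusted p = 0.0379, 0.0264 and 0.0204), where 4.66% of all genes were called lower.

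Between compounds 6 and 9 limma again called no member (1 at an unadjusted p under 0.05, Pfkl), where 6.5% of all genes were called. Pfkl had the change farthest from 0, at -0.63 ± 0.25 (SE, adjusted p = 0.152 in limma). With the replicate block Pfkl, Aldoa and Ldha were lower (adjusted p = 0.00546, 0.0153 and 0.0154), where 11.2% of all genes were called lower. These comparisons and those against vehicle share arrays, so their values are not independent.

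Compound 6 was also set against withdrawal on the same letters. Limma called no member (2 at an unadjusted p under 0.05, Pfkl and Ldha), where 15% of all genes were called, although Pfkl came near, at -0.47 ± 0.17 (SE, adjusted p = 0.0664 in limma). With the replicate block 4 members were called, where 34.1% of all genes were. Pfkl, Slc2a1 and Ldha were lower with compound 6 than after withdrawal (changes -0.47, -0.36 and -0.36; adjusted p = 0.00112, 0.00609 and 0.0012), and Hk1 was higher by 0.29 (adjusted p = 0.0203) on the probe listed on chromosome 5. The Hk1 probes on chromosome 10 lay on the other side of 0, at -0.32 ± 0.14 (adjusted p = 0.139 in limma over all probes kept) for the 3′ probe and -0.09 ± 0.11 (adjusted p = 0.657) for the 5′ probe, and the mean of all Hk1 probes changed by -0.04, so no direction is given for Hk1 here either. The 5′ probe of Ldha did pass in limma over all probes kept: it read 1.08, 0.88, 0.96 and 1.21 with compound 6, against 1.32, 1.46, 1.47 and 1.59 after withdrawal, a change of -0.43 ± 0.12 (SE, adjusted p = 0.0179) with no overlap. The compound 6 arrays lay wholly below the withdrawal arrays for Slc2a1, the 3′ probe of Ldha and the brightest probe of Pfkp. For Pfkp the gap was small, with a highest compound 6 value of 1.33 and a lowest withdrawal value of 1.34. The middle probe of Ldha and the other probe of Pfkp overlapped. For Pfkl compound 6 E (0.25) lay above withdrawal F (0.23). The share of all genes without overlap was not counted.

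**Figure D4:**
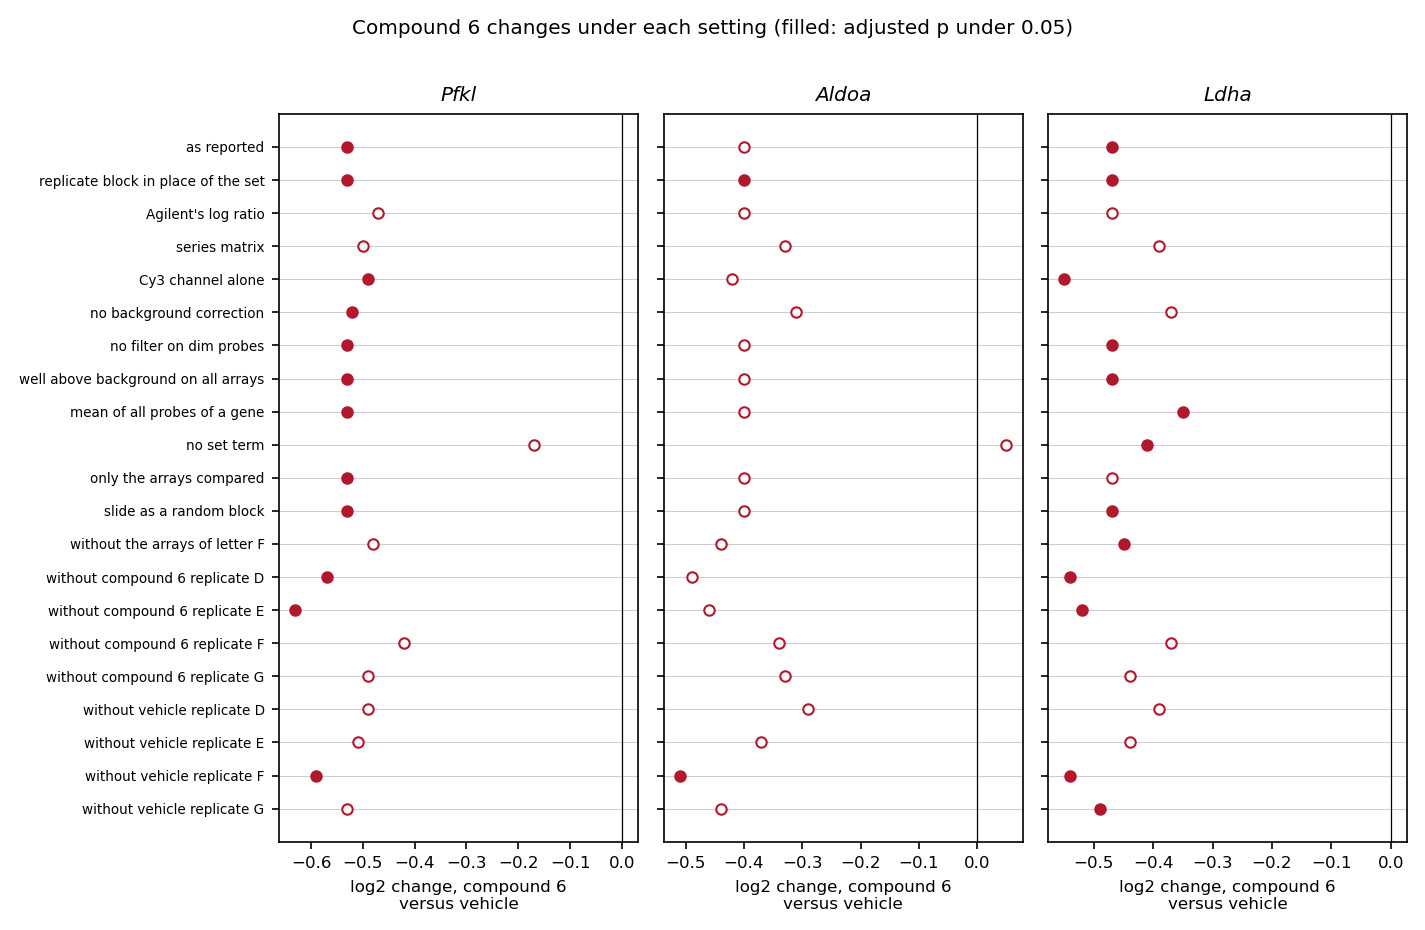
Log2 change of Pfkl, Aldoa and Ldha with compound 6 against vehicle under each processing setting and with each array left out; filled points have an adjusted p under 0.05. Pfkl and Ldha stay below 0 in every setting shown and are called in only some, and Aldoa is above 0 (0.05) in the setting without the set term.

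The 10 genes followed a pattern by letter. Over all genes tested, same-letter arrays of different groups also deviated together (median correlation 0.527). The share of all genes lowest on letter B or F was not counted, so the pattern is not shown to be particular to the 10. Letter B was the lowest array for 9 of the 10 genes in each of the groups compound 2, compound 9 and vehicle A to C, and letter F for 8 of 10 after withdrawal, 6 of 10 with compound 6 and 7 of 10 with vehicle D to G. After subtraction of the vehicle mean of the set, the median of the 10 genes on an array was -0.29 for compound 9 B and -0.32 for vehicle B, and 0.22 and 0.13 for letter A of the same groups. The features whose pattern over the 21 arrays was most like this median were the unnamed probes A_55_P2175272 (Pearson r 0.965), NAP070959-1 (0.96), A_55_P2186446 (0.957) and NAP023030-001 (0.955), and Gm5537 (0.962). All share the arrays and the letters, and none of the 5 was called with compound 6 (changes between -0.34 and -0.17).

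Of 18 other glycolytic steps and isoforms, 3 changed with compound 6: Ldhb, the lactate dehydrogenase subunit that favours pyruvate, rose by 0.41 ± 0.08 (SE, adjusted p = 0.000951 in limma), Pkm, pyruvate kinase (listed on the array as Pkm2), rose by 0.29 ± 0.08 (adjusted p = 0.0101), and Aldoc, the brain-type aldolase, fell by 0.23 on the log2 scale (adjusted p = 0.0212). This is 3 of 18 where 24.8% of all genes were called with compound 6 in either direction. With the replicate block 7 were called, 4 higher and 3 lower, where 41.3% of all genes were called; both counts are near or below the background. Without vehicle F 5 were called, 3 higher and 2 lower, where 34.3% of all genes were. Gapdh, the next step after Tpi1, had a change of -0.36 ± 0.13 with adjusted p = 0.0585, and of -0.47 with adjusted p = 0.0107 in limma without vehicle F. The median of the 18 was 0.06. So Ldhb was higher where Ldha was lower; the difference between the 2 changes was not tested. After withdrawal Adpgk, an ADP-dependent glucokinase, and Aldoc fell by 0.69 and 0.46 (adjusted p = 0.00757 and 0.000398) and the other 16 did not pass, where 20.7% of all genes were called; the block gave 4 called, and the fit without vehicle F 3, where 34.5% of all genes were called. With compound 2 only Pkm passed, at 0.42 ± 0.09 (adjusted p = 0.0083), and it was lower with compound 9 than with compound 2 by 0.46 (adjusted p = 0.00458).

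Among 18 regulators and genes of pyruvate or lactate handling, 3 rose and 2 fell with compound 6, 5 of 18 against the background of 24.8%. Pfkfb4 and Pfkfb3, whose enzymes set the level of fructose 2,6-bisphosphate, the activator of phosphofructokinase, rose by 0.73 ± 0.11 and 0.68 ± 0.21 (adjusted p = 0.000161 and 0.0243 in limma). Pdk3, a kinase that restrains pyruvate dehydrogenase, rose by 0.55 ± 0.17 (adjusted p = 0.026), a call that was lost without vehicle F (0.46, adjusted p = 0.0567 in limma). Bsg, the chaperone of lactate transporters, and Tigar, a fructose 2,6-bisphosphatase (listed as 9630033F20Rik), fell by 0.38 and 0.23 (adjusted p = 0.00287 and 0.0425). The replicate block gave 10 called, 5 each way, against its background of 41.3%. After withdrawal 2 rose, Pfkfb4 by 0.54 ± 0.11 (adjusted p = 0.00272) and Pfkfb2 by 0.43 ± 0.11 (adjusted p = 0.0123), and 3 fell: Tigar by 0.48, Pfkfb1 by 0.38 and Bsg by 0.25. Over all genes, 20.7% were called after withdrawal in either direction. Without vehicle F Pfkfb3 was called higher as well (0.64, adjusted p = 0.0328 in limma), where 34.5% of all genes were called in either direction. None of the 18 passed in limma with compound 2 or compound 9 (2 and 0 at an unadjusted p under 0.05).

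**Figure D5:**
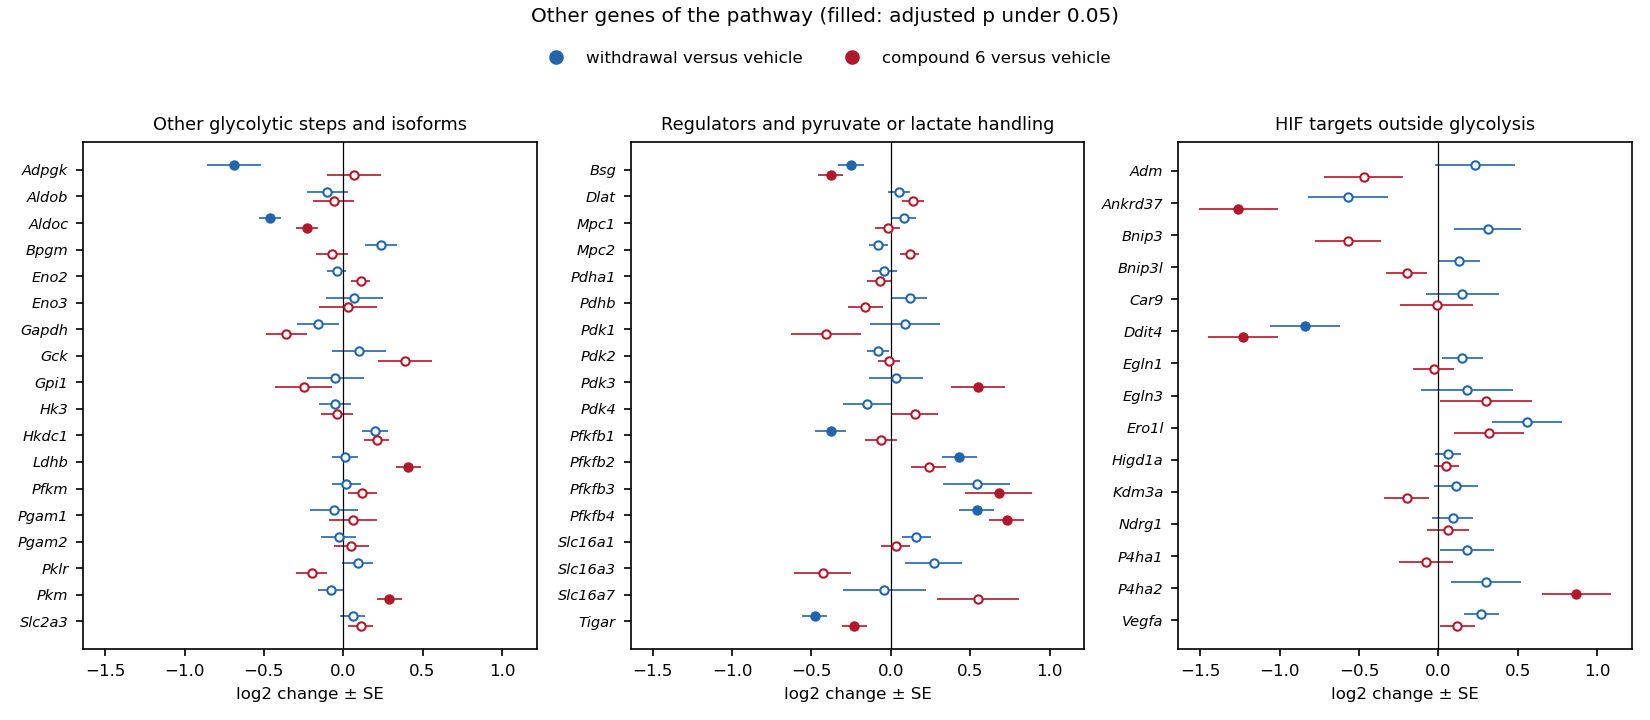
Log2 changes ± SE of the other genes of the pathway after withdrawal (blue) and with compound 6 (red), both against vehicles D to G (n = 4 each); filled points have an adjusted p under 0.05. Pfkfb4 is higher in both, Ldhb and Pkm pass with compound 6, and the HIF targets spread to both sides of 0.

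Of 15 measured HIF targets outside glycolysis, 3 passed with compound 6, in both directions: P4ha2, a collagen prolyl hydroxylase subunit, rose by 0.87 ± 0.22, and Ankrd37 and Ddit4 (an inhibitor of mTORC1) fell by 1.26 and 1.23. The median of the 15 was -0.03, equal to that of all genes; the block gave 1 higher and 5 lower, and the fit without vehicle F 2 higher and 3 lower. After withdrawal Ddit4 fell by 0.84 and no other passed. For withdrawal the block gave 3 higher and 2 lower, and the fit without vehicle F gave 2 higher and 1 lower. Over all genes, 24.8% were called with compound 6 in either direction, 41.3% with the block and 34.3% without vehicle F. For withdrawal these shares were 20.7%, 39.1% and 34.5%. The counts for the 15 were near or below these shares. Of 6 regulators, Hif1a, the oxygen-regulated HIF subunit, rose by 0.76 ± 0.20 with compound 6 and by 1.09 ± 0.20 after withdrawal (adjusted p = 0.00902 and 0.00131 in limma). Myc, a known Wnt target, fell by 2.08 after withdrawal (adjusted p = 1.53e-05), and with compound 6 it had a change of -0.12 ± 0.22, and of -0.44 (adjusted p = 0.0174 in limma) without vehicle F. Of 5 genes of steps that run the other way, Pck1, the phosphoenolpyruvate carboxykinase of gluconeogenesis, rose by 1.26 ± 0.28 after withdrawal (adjusted p = 0.00441; 3 of the 5 were called higher without vehicle F) and none of the 5 passed in limma with compound 6 (0 at an unadjusted p under 0.05).

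Cell type markers moved beside these changes, and their part in them was not tested. Of 12 genes of dividing cells, 11 fell after withdrawal (median -1.43), and with compound 6 5 fell and 1 rose (median -0.97); the block gave 10 lower with compound 6. Without vehicle F, which is low for this list, 12 fell after withdrawal (median -1.97), and with compound 6 11 fell and 1 rose (median -1.55), where 34.5% and 34.3% of all genes were called. Vehicle F was set apart by its low ratio for this same list. Larger falls without it follow from that choice and are no separate evidence. The median ratio of the 12 genes per array was -4.28 to -3.39 after withdrawal, -3.94 to -2.84 with compound 6 and -4.20 to -1.79 with vehicle D to G. Of 8 measured leukocyte markers 6 were higher with compound 6, led by Csf1r (1.05) and Itgam (0.55), while Ptprc, which defines leukocytes, had a change of 0.16 ± 0.09 (adjusted p = 0.226). Their median per array was -1.68 to -1.55 with compound 6 and -2.33 to -2.16 with vehicle D to G. Of 7 measured fibroblast markers 4 were higher with compound 6, with Pdgfra and Lum below the filter. Their median per array was -6.10 to -5.74 with compound 6, against -6.22 to -5.90 with vehicle D to G. These ranges overlapped and lay far below the reference RNA. Of 11 enterocyte genes 3 were higher and none lower, both after withdrawal and with compound 6. Over all genes, 11.4% were called higher and 13.4% lower with compound 6, and 7.27% and 13.4% after withdrawal. With the replicate block 23.9% were called lower with compound 6.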

How the data were processed

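Spots were quantified by Agilent Feature Extraction 10.7.3.1, per the file headers, with probe positions on mm9. The deposited scanner files give spot intensity and background for both channels, and a log10 ratio (reference over sample) that Agilent's software had corrected. Log2 ratios, sample over reference, make up the deposited series matrix; the sources used here do not name its software. Dyes were not swapped.

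Fits used limma 3.58.1 under R 4.3.3, and files were read through data.table, version 1.17.8. The intensities were corrected with normexp (offset 50) and normalised by loess within arrays to log2 sample over reference. Of 62976 spots an array, 3671 controls were left out, as were 157 non-uniform spots over all arrays; none was saturated. Well above background were 42.6% to 51.9% of spots in the sample channel; the number of arrays limits the precision. Probes above background on at least 3 arrays were kept (29628), and the brightest stood for its gene (21370 genes). One model over 21 arrays had terms for group and letter set; tests were two-sided, with a threshold of 0.05 on the adjusted p. The model was tested on simulated data.

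Same-letter arrays of different groups correlated at 0.208 to 0.749 in their deviations from the group means (21 pairs, against a median of -0.179 for other letters). A fit with the letter as a block was therefore added. The labels do not say what a letter stands for. No array duplicated another (highest correlation 0.996). Other alternatives were Agilent's ratio, the series matrix, Cy3 alone, no background correction, other probe filters, the mean of all probes, no set term, fewer arrays, and the slide as a random block (correlation 0.00502; 5 slides). Named genes were all 10 members, up to 3 called genes a list with the largest change (others are named as part of a small count, or as the neighbour step, after their values were seen), and the 5 features most like the members. Members and lists were chosen with earlier results of these data known. Figures used Python 3.11.15 and matplotlib 3.10.9.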

Additional observations from a re-analysis of the deposited data

Results flagged for a closer look

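Dixon's ratio was computed for each of the 10 genes in 4 groups of arrays, 40 in all, and 2 exceeded the 95% critical value, which chance does for about 1 group in 20. Slc2a1 read -3.61 on vehicle B, while the other 6 vehicle arrays lay between -2.72 and -2.15. That group joins both letter sets, whose ranges for Slc2a1 do not overlap (D to G averaged -2.20), and the 3 vehicle arrays A to C are too few for this ratio by themselves. The gap was 0.608 of the range, and letter B was also the lowest for Slc2a1 with compounds 2 and 9. Tpi1 read -0.18 on withdrawal F, while the other 3 withdrawal arrays lay between 0.13 and 0.17, a gap of 0.869 of the range. Letter F was also the lowest array for Tpi1 with compound 6 and with vehicle D to G.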

How the results depend on the processing

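Of the 10 genes, the numbers called were given above for the main setting and the replicate block. The replicate block, which pairs arrays by letter, raised the number to 3 for withdrawal, 5 for compound 6, 3 for compound 6 against compound 2, 3 against compound 9 and 4 against withdrawal, and left compounds 2 and 9 at 0 in limma (2 and 0 at an unadjusted p under 0.05). For compound 6 against vehicle the number was 0 with Agilent's log ratio and with the series matrix, 1 without background correction, without the set term, with only the arrays compared and without letter F, and 0 to 4 with 1 array left out. It was 0 without compound 6 F, compound 6 G, vehicle D or vehicle E, 1 without vehicle G and 4 without vehicle F. The share of all genes called with compound 6 also moved, from 24.8% in the main fit to 41.3% with the block and 34.3% without vehicle F. Shares for settings other than the main fit, the block and the fit without vehicle F are not given here. The counts are therefore not shown to be particular to the 10. For withdrawal the number of members called was 1 (Hk1) without letter F, and 0 to 1 with 1 array left out, the 1 being without vehicle F. For compound 6 against withdrawal it was 1 with the series matrix and with the mean of all probes, 3 with Cy3 alone, 2 with only the arrays compared, and 0 to 1 with 1 array left out (1 without compound 6 E). Without the set term it was 1 for compound 2, 3 for compound 6 against compound 2 and 2 against compound 9. That fit sets arrays of different sets against each other, and it turned Tpi1 with compound 6 against compounds 2 and 9 (0.54 and 0.61) and Hk1 against compound 9 (0.88). With compound 6 against vehicle, Pfkl ranged between -0.63 and -0.17 and Ldha between -0.55 and -0.35 over all settings, with adjusted p 0.00033 to 0.607 and 0.000109 to 0.435. Of 1730 single-gene values under other settings, 147 had the opposite sign with neither value called. No scaling moved the median of all genes by more than 0.1. That median cannot show a shift in only part of the genes, and the cause of the differences between settings was not tested.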
